A study of Mus musculus with 4 samples.

Results

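The genes of branched-chain amino acid (BCAA) breakdown are 10 genes that carry leucine, isoleucine and valine into mitochondria, remove their amino group, oxidize the resulting keto acids and take leucine through its next steps. They were chosen by gene symbol (Slc25a44, Bcat1, Bcat2, Bckdha, Bckdhb, Dbt, Bckdk, Ppm1k, Ivd and Mccc1), and each was found, as 1 row of the 24421 genes in the deposited matrices. Expression was measured by poly(A) RNA-seq in the epididymal fat pad, a visceral depot, of wild-type male C57BL/6J mice, an inbred strain that becomes obese on high-fat diet (HFD). Ctrl mice started HFD at 10 weeks of age and stayed on it without a break for 14 weeks. WC1 (weight cycling) mice were fed HFD for 8 weeks from 8 weeks of age, changed to standard diet (SD) for 2 weeks and returned to HFD for 6 weeks, so that both groups were 24 weeks old and had had 14 weeks of HFD. There was no lean group, and the time since the start of HFD and the age at its start differed between the groups along with the break. Each group had 2 libraries. Neither the labels nor the methods say whether a library was 1 mouse or a pool, so p-values measure the spread between these libraries only, which may be technical in part.

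BCAA breakdown begins with 2 reactions that all 3 amino acids share. A transaminase (BCAT) moves the amino group to 2-oxoglutarate, and the branched-chain keto acid dehydrogenase complex (BCKDH) then removes a carboxyl group in a step that cannot be reversed. BCKDH is switched off when its kinase phosphorylates the E1α subunit and switched on when a phosphatase removes that phosphate, so the activity of the pathway depends on the ratio of kinase to phosphatase as well as on the amount of the complex. Adipocytes take up and oxidize BCAA, and fat is one of the tissues in which the pathway is known to be regulated in obesity.

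The mRNA of the BCKDH subunits and of Ivd and Mccc1, the early leucine steps behind them, was increased in WC1 mice. The steps before the complex and its kinase and phosphatase did not pass the test. The difference between these 2 sets of genes was not tested. Of the 10 genes, 5 were increased in WC1 mice compared to Ctrl mice (Bckdha, Bckdhb, Dbt, Ivd and Mccc1), with log2 fold changes between 0.51 and 0.74, and 0 were decreased (limma across all tested genes, adjusted p under 0.05; 5 higher and 0 lower at an unadjusted p under 0.05, and 5 higher and 0 lower by edgeR and by DESeq2). The background was high, since 10.2% of the 14106 tested genes were called higher and 7.71% lower in the same comparison. At an unadjusted p under 0.05 the shares were 18.9% higher and 18.9% lower, by edgeR 10.5% and 7.14%, and by DESeq2 15.1% and 12.3%. With no filter on low values, 3 of the 10 genes were called higher and 0 lower (Dbt and Ivd were lost), against 4.35% and 2.93% of all genes. The groups did not overlap for 7 of the 10 genes, all higher in WC1, against 32.7% of all tested genes with both WC1 libraries above both Ctrl libraries and 36.6% with both below. The median log2 fold change of the 10 genes was 0.46, and that of all tested genes was -0.02. The study itself named valine, leucine and isoleucine degradation from these libraries, so the direction of the set is not independent evidence. In whole tissue, fewer cells of a type and less RNA per cell cannot be told apart, and markers of other cell types moved between the groups as given below.

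**Figure D1:**
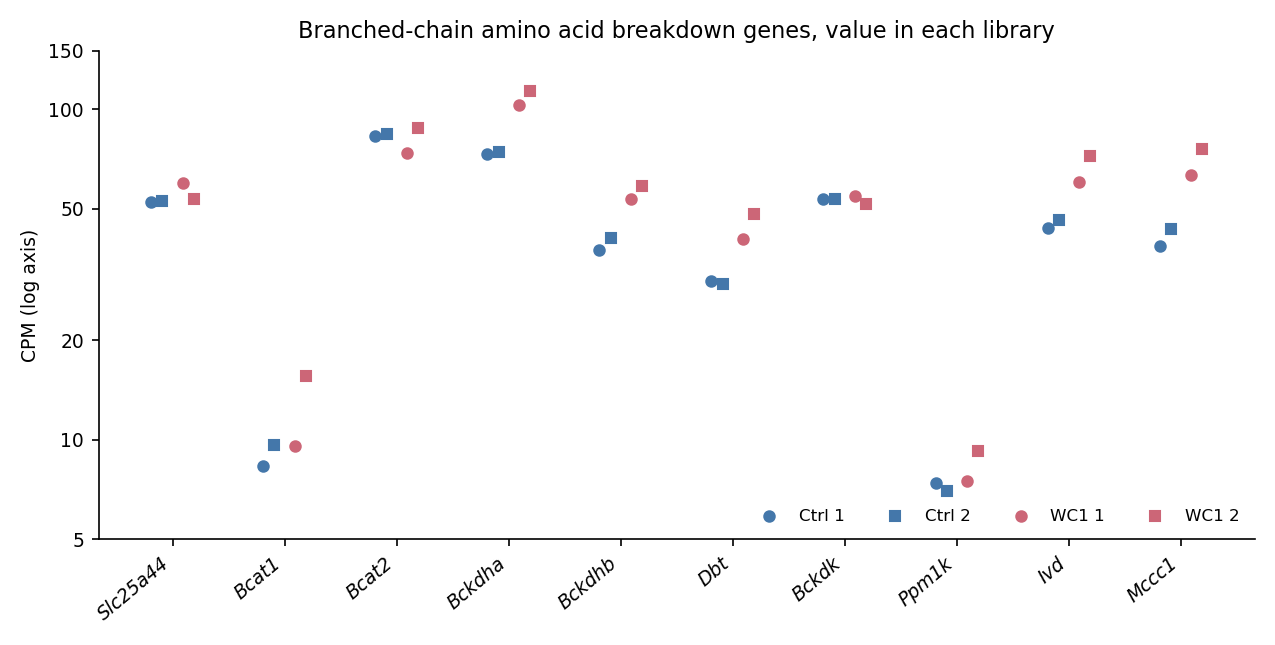
CPM (log axis) of the 10 genes in each of the 4 libraries, with circles for replicate 1 and squares for replicate 2, Ctrl in blue and WC1 in red. For Bckdha, Bckdhb, Dbt, Ivd and Mccc1 both red points lie clearly above both blue points, while for Bckdk the 4 points lie between 51.5 and 54.7 CPM.

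To show the DNA from which these transcripts start, promoter windows (300 bases that run up to and just past a start site, from RefSeq on GRCm38.p6, the assembly behind mm10) were read for 4 of the 5 genes that increased and for the kinase gene Bckdk, which did not pass the test. Windows were found for 8 of the 10 genes, 11 windows in all, and Dbt and Slc25a44 had none. Each is printed 5′ to 3′ on the strand of the gene, and the capitals mark 3 kinds of motif found on either strand. These were the GC box, which reads GGGCGG, the CCAAT box, which reads as its name says, and the E-box, for which the palindrome CACGTG was searched.

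Bckdha, minus strand, chr7:25658712-25659011: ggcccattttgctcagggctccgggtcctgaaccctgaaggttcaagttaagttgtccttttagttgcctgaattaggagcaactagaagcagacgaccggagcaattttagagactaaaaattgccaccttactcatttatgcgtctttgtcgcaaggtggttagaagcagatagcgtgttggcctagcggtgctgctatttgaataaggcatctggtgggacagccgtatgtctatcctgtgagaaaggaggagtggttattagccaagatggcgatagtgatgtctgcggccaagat

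Bckdhb, plus strand, chr9:83924887-83925186: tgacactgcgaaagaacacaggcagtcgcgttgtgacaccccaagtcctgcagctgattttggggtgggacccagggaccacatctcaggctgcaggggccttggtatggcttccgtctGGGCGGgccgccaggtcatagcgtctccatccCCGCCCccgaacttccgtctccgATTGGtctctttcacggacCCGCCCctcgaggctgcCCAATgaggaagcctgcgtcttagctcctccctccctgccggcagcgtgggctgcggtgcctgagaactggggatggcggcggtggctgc

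Ivd, plus strand, chr2:118861744-118862043: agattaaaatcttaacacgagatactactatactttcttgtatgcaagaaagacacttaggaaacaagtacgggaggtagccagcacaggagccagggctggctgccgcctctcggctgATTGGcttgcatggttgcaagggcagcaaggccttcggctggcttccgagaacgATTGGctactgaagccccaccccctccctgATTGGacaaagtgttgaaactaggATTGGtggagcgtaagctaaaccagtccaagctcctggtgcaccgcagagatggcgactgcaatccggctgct

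Mccc1, minus strand, chr3:36000629-36000928: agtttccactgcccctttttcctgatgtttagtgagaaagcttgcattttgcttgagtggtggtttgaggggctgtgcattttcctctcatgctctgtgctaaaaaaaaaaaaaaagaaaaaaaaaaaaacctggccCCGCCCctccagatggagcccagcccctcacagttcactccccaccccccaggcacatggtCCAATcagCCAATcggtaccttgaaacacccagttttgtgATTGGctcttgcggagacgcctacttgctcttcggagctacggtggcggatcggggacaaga

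Bckdk, plus strand, chr7:127903823-127904122: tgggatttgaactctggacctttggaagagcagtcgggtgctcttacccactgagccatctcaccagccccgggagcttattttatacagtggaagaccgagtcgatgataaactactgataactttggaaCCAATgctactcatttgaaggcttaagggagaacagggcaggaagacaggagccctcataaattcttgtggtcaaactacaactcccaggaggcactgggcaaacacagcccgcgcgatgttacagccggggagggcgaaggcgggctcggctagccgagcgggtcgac

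The windows of the genes that rose together did not share 1 layout. The Ivd window held 4 CCAAT boxes, the Mccc1 window 3 CCAAT boxes and 1 GC box, and the Bckdhb window 2 CCAAT boxes and 3 GC boxes, while the Bckdha window held 0 of either. The Bckdk window held 1 CCAAT box. Over the windows of the 10 genes, 7 of 11 held a CCAAT box, 3 of 11 a GC box and 0 of 11 an E-box, and among all 32851 windows in the table the shares were 37.4%, 35.7% and 7.15%. A match is a description of the letters and not a binding site.

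The carrier and the transaminases act before the complex. Slc25a44, the carrier that brings BCAA into mitochondria (chr3:88410494-88425141, minus strand), was at 52.2 and 52.7 CPM in the Ctrl libraries and at 59.8 and 53.6 CPM in the WC1 libraries. Both WC1 values were above both Ctrl values, the lower of them by less than 1 CPM, and the log2 fold change of 0.11 ± 0.08 (SE) did not pass the test (adjusted p = 0.372, 95% interval -0.10 to 0.32).

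Bcat2, the mitochondrial transaminase and the main one outside the brain (chr7:45568967-45589710, plus strand), had 83.2 and 84.1 CPM in the Ctrl pair against 73.5 and 87.6 CPM in the WC1 pair. The WC1 libraries lay on either side of the Ctrl libraries, and the log2 fold change was -0.06 ± 0.10 (SE, adjusted p = 0.696, 95% interval -0.32 to 0.20). Its sign turned with the scaling and with 1 library, to 0.08 in TPM and to 0.07 without WC1 replicate 1. Bcat1, the cytosolic transaminase best known from brain and from growing cells (chr6:144993835-145076157, minus strand), had 8.33 and 9.66 CPM in Ctrl libraries against 9.59 and 15.6 CPM in WC1. The groups overlapped, because only WC1 replicate 2 stood above the others. The log2 fold change was 0.41 ± 0.23 (SE, adjusted p = 0.259, 95% interval -0.19 to 1.01). That interval was wide enough to hold the changes of the genes that were called. Without WC1 replicate 1 the log2 fold change was 0.73, a value that rested on WC1 replicate 2.

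The E1 component of BCKDH removes the carboxyl group and is built from E1α and E1β subunits. Bckdha, which encodes E1α and carries the sites that the kinase phosphorylates (chr7:25629852-25658782, minus strand), was at 73.0 and 74.0 CPM in Ctrl and rose to 102.7 and 113.1 CPM in WC1. The means were 73.5 ± 0.69 and 107.9 ± 7.39 CPM (SD, n = 2 each), a ratio of 1.47, and the gap between the groups was several times the spread within either. The log2 fold change was 0.55 ± 0.08 (SE, adjusted p = 0.0199). In the annotation B3gnt8 overlaps Bckdha over 5155 bases on the opposite strand and the strand setting of the read counting is unknown from the sources used here. B3gnt8 had 14.0 and 10.95 CPM in the Ctrl pair against 9.46 and 8.02 CPM in the WC1 pair, lower where Bckdha was higher. Mccc1os, which overlaps Mccc1 on the opposite strand over 846 bases, had 0.439 and 0.299 CPM in the Ctrl pair against 0.705 and 0.620 CPM in the WC1 pair, higher like Mccc1. Other genes annotated over Bckdhb, Dbt and Mccc1 were not analysed here, and the part of overlapping genes in these values was not tested.

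Bckdhb, which encodes E1β (chr9:83925111-84124240, plus strand), had 37.5 and 40.7 CPM in the Ctrl pair against 53.6 and 58.4 CPM in the WC1 pair. Dbt, which encodes the E2 core that transfers the acyl group to coenzyme A (chr3:116513070-116549981, plus strand), had 30.2 and 29.5 CPM in the Ctrl pair against 40.5 and 48.0 CPM in the WC1 pair. Neither gene overlapped between the groups. The log2 fold changes were 0.51 ± 0.08 (SE, adjusted p = 0.0248) for Bckdhb and 0.55 ± 0.10 (SE, adjusted p = 0.0304) for Dbt. The 3 subunits thus moved by 0.51 to 0.55 on the log2 scale, and their proportions to each other hardly moved. Within a library, Bckdha to Dbt had a log2 ratio of 1.25 and 1.296 in Ctrl libraries against 1.32 and 1.22 in WC1, and that of Bckdha to Bckdhb was 0.94 and 0.85 in Ctrl libraries against 0.92 and 0.94 in WC1, overlapping in both cases.

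The kinase and the phosphatase that set the phosphorylation of E1α were compared next. Bckdk, the BCKDH kinase (chr7:127904073-127909664, plus strand), was at 53.6 CPM in both Ctrl libraries and at 54.7 and 51.5 CPM in WC1. The WC1 libraries lay on either side of the Ctrl libraries. The log2 fold change was -0.01 ± 0.07 (SE, adjusted p = 0.898, 95% interval -0.19 to 0.16), which does not show that the levels were equal, but the interval ended below the smallest change among the subunits. Ppm1k, the mitochondrial phosphatase of BCKDH (chr6:57506502-57535552, minus strand), had 7.41 and 6.99 CPM in the Ctrl pair against 7.51 and 9.28 CPM in the WC1 pair. Both WC1 values were above both Ctrl values, 1 of them narrowly, and the log2 fold change of 0.19 ± 0.13 did not pass the test (SE, adjusted p = 0.343, 95% interval -0.15 to 0.53).

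Ratios within a library hardly depend on how the libraries are scaled to each other, so the balance of the steps was described with them. The log2 ratio of the BCKDH subunits (mean of Bckdha, Bckdhb and Dbt, on log2(CPM + 1)) to Bckdk was -0.29 and -0.26 in Ctrl libraries against 0.15 and 0.40 in WC1. The mean ratio shifted by 0.55 between the groups, which did not overlap, and WC1 replicate 2 had the highest value. The ratio of the subunits to Bcat2 was -0.91 and -0.90 in Ctrl libraries against -0.27 and -0.35 in WC1, a shift of 0.59. Here the 2 libraries of a group lay close together, since the values of Bcat2 and of the subunits were both higher in WC1 replicate 2 than in WC1 replicate 1. With 2 libraries against 2 an exact permutation test (two-sided) of a single value can give no p below 0.333, and these ratios are given as a description.

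The ratio of kinase to phosphatase was not resolved. The log2 ratio of Bckdk to Ppm1k was 2.70 and 2.77 in Ctrl libraries against 2.71 and 2.35 in WC1, and the groups overlapped. Per transcript length the kinase mRNA was 14.1 and 14.9 times the phosphatase mRNA in Ctrl (TPM) and 14.2 and 10.8 times in WC1, so only WC1 replicate 2 stood apart. Bcat2 to Bcat1 had a log2 ratio of 3.17 and 2.996 in Ctrl libraries against 2.81 and 2.42 in WC1, with no overlap.

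**Figure D2:**
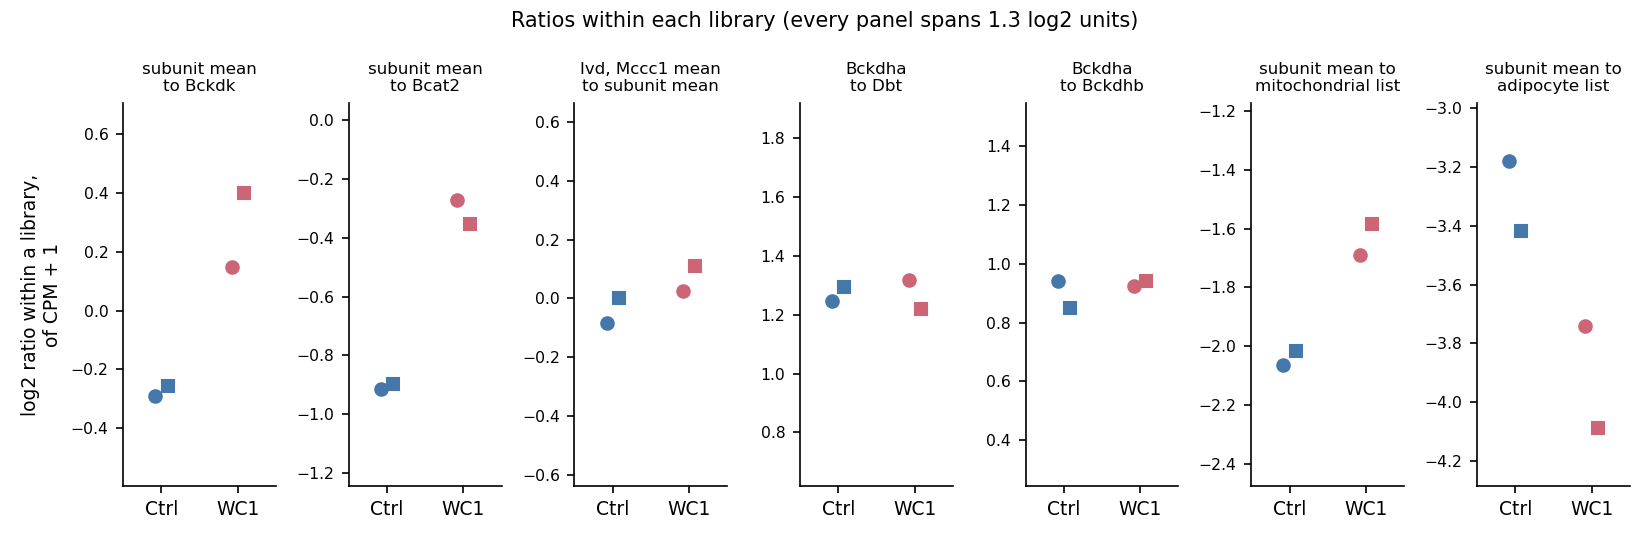
Log2 ratio of CPM + 1 between genes or gene means within each library, 1 panel per ratio and every panel 1.3 log2 units tall, with circles for replicate 1 and squares for replicate 2. The BCKDH subunits lay higher against Bckdk, Bcat2 and the mitochondrial list in both WC1 libraries and lower against the adipocyte list, while the ratios among the subunits overlapped.

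The early leucine steps behind BCKDH, Ivd and Mccc1, rose with it. Ivd, the isovaleryl-CoA dehydrogenase that takes the product of leucine through its next oxidation (chr2:118861959-118882909, plus strand), had 43.8 and 46.3 CPM in the Ctrl pair against 60.4 and 72.2 CPM in the WC1 pair. The log2 fold change was 0.54 ± 0.11 (SE, adjusted p = 0.0329). Mccc1, the biotin-carrying α subunit of methylcrotonyl-CoA carboxylase, the following step (chr3:35956292-36000694, minus strand), had 38.6 and 43.3 CPM in the Ctrl pair against 63.3 and 75.5 CPM in the WC1 pair. It had the largest change of the 10 genes, with a ratio of means of 1.69 and a log2 fold change of 0.74 ± 0.11 (SE, adjusted p = 0.0228, 95% interval 0.45 to 1.04). The log2 ratio of these leucine steps to the BCKDH subunits was -0.08 and 0.0022 in Ctrl libraries against 0.02 and 0.11 in WC1, a shift of 0.11 that was small beside the change of either.

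The depth behind these values was high. As recovered from the first matrix, the libraries held between 61465029 and 90965297 reads, and the 10 genes had between 458 and 7316 reads each in a library. The calls depended on which libraries were kept. With either Ctrl library left out, 0 of the 10 genes were called, although the log2 fold changes of the 5 genes stayed between 0.45 and 0.82 (adjusted p between 0.178 and 0.226 without Ctrl replicate 1 and between 0.1098 and 0.169 without Ctrl replicate 2). All 5 were called with a WC1 library left out (adjusted p between 0.0017 and 0.0049 without WC1 replicate 1 and between 0.0095 and 0.0219 without WC1 replicate 2), but the spread then came from the Ctrl pair alone and the lone WC1 library was assumed to vary like it.

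The order of the genes was compared per transcript length, in TPM. In Ctrl, Bcat2 was the most abundant at 90.5 ± 1.34 TPM (SD, n = 2), followed by Bckdha at 79.6 ± 1.31, Bckdhb at 52.4 ± 3.28, Ivd at 41.8 ± 1.92 and Bckdk at 36.0 ± 0.24 TPM. Slc25a44 (28.7), Mccc1 (26.4) and Dbt (17.4) came next, and Ppm1k (2.48) and Bcat1 (2.20 TPM) were the least abundant. No neighbours in this order overlapped between their Ctrl libraries. In WC1, Bckdha was first at 129.0 ± 11.7 TPM and Bcat2 second at 96.3 ± 14.0, and Mccc1 at 49.3 ± 7.24 TPM stood above Bckdk (39.3) and Slc25a44 (33.8). In WC1, Bcat2 overlapped with Bckdhb (82.8 ± 6.95 TPM) and Bcat1 with Ppm1k. The mRNA of the E2 core was thus the scarcest of the complex in both groups, with 4.49 and 4.65 Bckdha transcripts for each Dbt transcript in Ctrl and 4.70 and 4.37 in WC1.

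**Figure D3:**
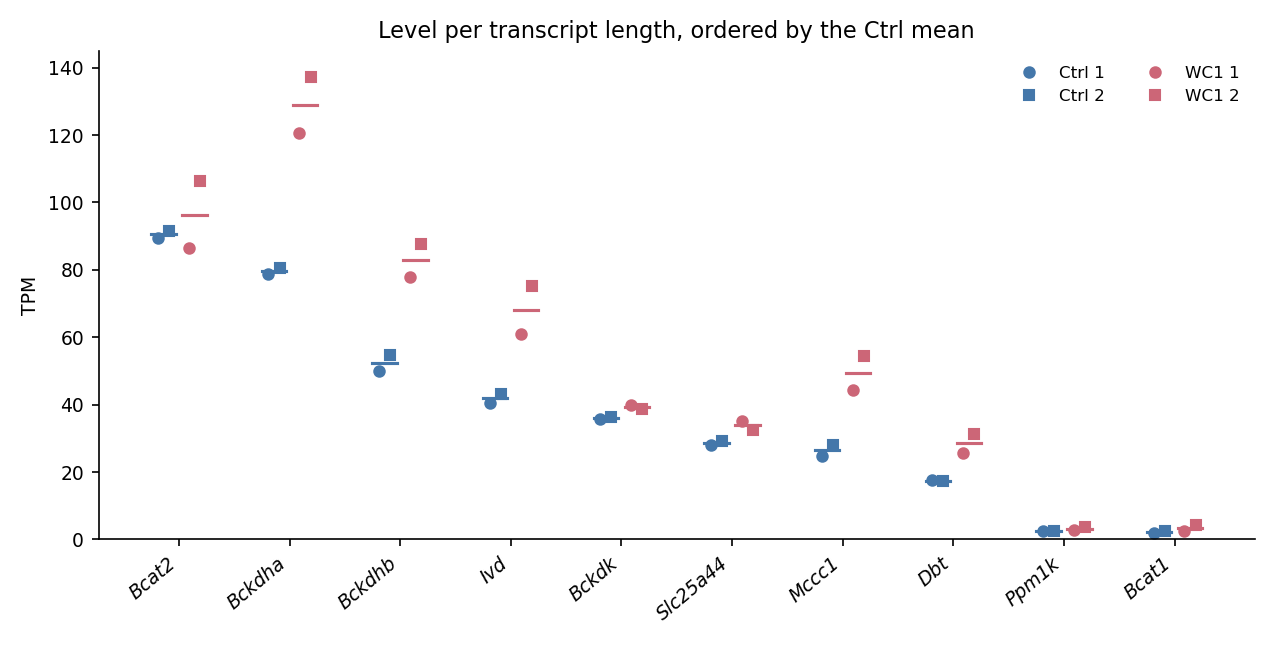
TPM (linear axis from 0) of the 10 genes in each library, ordered by the Ctrl mean, with a bar at the mean of each group, Ctrl in blue and WC1 in red. Bckdha stands below Bcat2 in Ctrl and above it in WC1, and Mccc1 stands below Bckdk in Ctrl and above it in WC1.

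TPM sum to the same total in each library, and on that scale the whole comparison shifted upward. The median log2 fold change of all tested genes was 0.10 in TPM against -0.02 in CPM, and the calls split into 2054 higher and 583 lower in TPM against 1443 higher and 1088 lower in CPM. The same 5 genes were called in TPM. Taken relative to the median of all genes, the log2 fold changes in TPM were 0.58 for Bckdha, 0.55 for Bckdhb, 0.57 for Dbt, 0.58 for Ivd and 0.77 for Mccc1, and among the genes that were not called they were 0.33 for Bcat1, 0.16 for Ppm1k, 0.13 for Slc25a44, 0.02 for Bckdk and -0.02 for Bcat2.

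The partners that complete the enzymes of the 10 genes were also increased. Dld, the E3 component that BCKDH shares with the pyruvate and 2-oxoglutarate dehydrogenases, had 149.8 and 146.1 CPM in the Ctrl pair against 182.5 and 187.2 CPM in the WC1 pair (log2 fold change 0.32 ± 0.07 SE, adjusted p = 0.0376). Against Dld, the mean of the specific subunits had a log2 ratio of -1.76 and -1.69 in Ctrl libraries against -1.57 and -1.44 in WC1. Mccc2, the β subunit of methylcrotonyl-CoA carboxylase, had 29.1 and 33.3 CPM in the Ctrl pair against 43.9 and 56.4 CPM in the WC1 pair (0.66 ± 0.14 SE, adjusted p = 0.0410). Both calls were lost with no filter on low values (adjusted p of 0.0514 for Dld and 0.0698 for Mccc2), with limma without the abundance trend (0.0605 and 0.0566) and without either Ctrl library. The 2 carboxylase subunits moved together, with TPM ratios of Mccc1 to Mccc2 between 0.926 and 1.03 in the 4 libraries.

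The rest of the pathway was read from 25 other genes, the partners included. Of these, 15 were increased and 0 were decreased in WC1 (20 and 0 at an unadjusted p under 0.05, 15 and 0 by edgeR, 18 and 0 by DESeq2, 12 and 0 by limma without the trend, 9 and 0 with no filter, 0 and 0 without either Ctrl library), with a median log2 fold change of 0.48. Of all tested genes, 10.2% were called higher (18.9% at an unadjusted p under 0.05, 10.5% by edgeR, 15.1% by DESeq2). By limma without the trend 8.85% were called higher and 5.35% lower, and with no filter 4.35% higher and 2.93% lower. As for the 10 genes, the study drew attention to this pathway in the same libraries, so the count is not independent of it. By branch, 2 of 4 valine genes rose, led by Aldh6a1, which makes propionyl-CoA from the valine product (82.9 and 95.1 CPM in Ctrl, 152.1 and 187.0 in WC1, log2 fold change 0.92, adjusted p = 0.0199). Hibch, which releases the coenzyme A in the valine branch, followed with 35.4 and 38.9 CPM in Ctrl libraries against 55.9 and 65.5 CPM in WC1 (0.69, adjusted p = 0.0226).

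In the isoleucine branch 1 of 3 genes rose. This was Acat1, the thiolase that ends the branch, with 94.8 and 97.4 CPM in Ctrl libraries against 130.3 and 160.4 CPM in WC1 (0.58, adjusted p = 0.0330), a call that was lost with no filter on low values (adjusted p = 0.0578) and without either Ctrl library. Acadsb, which encodes the short/branched-chain acyl-CoA dehydrogenase, had 59.4 and 62.0 CPM in the Ctrl pair against 76.8 and 97.0 CPM in the WC1 pair and did not pass the test (0.50, adjusted p = 0.0528). It was called in TPM (adjusted p = 0.0444) and with DESeq2 (0.0046), and also without WC1 replicate 1 (0.0018) or replicate 2 (0.0320), where the spread came from the Ctrl pair alone. In the propionate branch, which valine and isoleucine share, 4 of 6 genes rose, among them Mmab, which makes the cobalamin cofactor (25.3 and 28.4 against 41.0 and 48.1 CPM, 0.71, adjusted p = 0.0236), and Pccb, a subunit of propionyl-CoA carboxylase (65.7 and 72.0 against 98.3 and 113.8 CPM, 0.61, adjusted p = 0.0243).

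After the carboxylase, 0 of 2 genes of the later leucine steps were called. Auh, the hydratase of the leucine branch, had 29.3 and 35.2 CPM in the Ctrl pair against 39.2 and 42.3 CPM in the WC1 pair and did not pass the test (0.33, adjusted p = 0.0984).

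Of the 8 genes whose enzymes also serve fatty acid oxidation, 6 were increased. Acadm, the medium-chain acyl-CoA dehydrogenase, rose from 262.9 and 271.0 CPM in Ctrl to 422.1 and 441.6 CPM in WC1 (0.69, adjusted p = 0.0149). Ehhadh, the peroxisomal bifunctional enzyme, rose from 17.8 and 20.47 CPM to 39.95 and 55.1 CPM (1.26, adjusted p = 0.0192), the largest change among all 35 pathway genes. These genes do not report on BCAA alone.

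**Figure D4:**
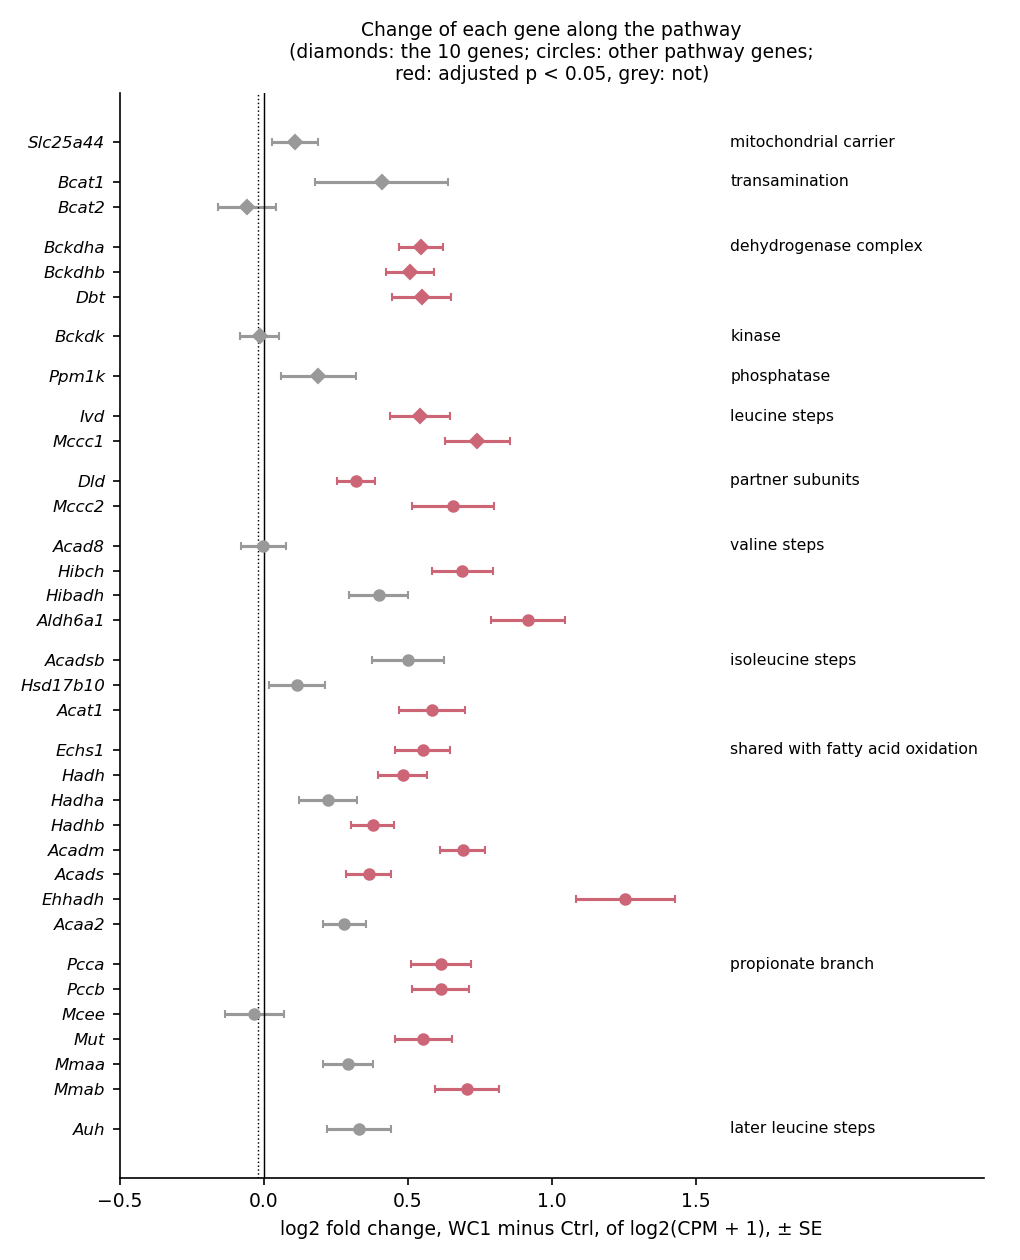
Log2 fold change (WC1 minus Ctrl, on log2(CPM + 1)) with its SE for the 10 genes (diamonds) and other pathway genes (circles) by step, red where the adjusted p was under 0.05 and grey where it was not, with a dotted line at the median of all tested genes. The carrier, both transaminases, the kinase and the phosphatase are grey, and the 3 BCKDH subunits and both early leucine steps are red.

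At the cell surface, 1 of 5 tested BCAA transporters (6 were listed, and Slc6a15 was too low to test) changed, and it was decreased. Among all tested genes 7.71% were called lower. Slc43a2, a transporter of large neutral amino acids, had 206.5 and 176.7 CPM in the Ctrl pair against 102.7 and 82.8 CPM in the WC1 pair (log2 fold change -1.04 ± 0.14 SE, adjusted p = 0.0181). Macrophage markers were lower in the same WC1 libraries, and the log2 ratio of Slc43a2 to the mean of 10 macrophage markers was -1.87 and -1.996 in Ctrl libraries against -2.31 and -2.08 in WC1, a shift of -0.26 against the -1.04 of the gene itself. Their part in the fall of Slc43a2 was not tested. Slc3a2, the heavy chain that carries several of these transporters to the membrane, had 233.3 and 243.8 CPM in the Ctrl pair against 210.3 and 207.2 CPM in the WC1 pair (-0.19, adjusted p = 0.120).

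Of 6 regulators and linked genes, 3 were increased and 0 decreased, against 10.2% and 7.71% of all tested genes. Mlxipl, which encodes the carbohydrate response factor ChREBP, had 24.9 and 25.6 CPM in the Ctrl pair against 45.0 and 65.9 CPM in the WC1 pair (1.08, adjusted p = 0.0265), a call that was lost with no filter on low values (adjusted p = 0.0518) and without either Ctrl library. Acly, the ATP-citrate lyase of lipid synthesis, whose protein is also acted on by the BCKDH kinase and phosphatase, had 260.0 and 255.1 CPM in the Ctrl pair against 341.6 and 351.0 CPM in the WC1 pair (0.43, adjusted p = 0.0269).

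A list of 20 other mitochondrial genes served as a reference for mitochondrial mRNA at large. Of these, 2 were increased and 1 was decreased, shares no higher than the 10.2% and 7.71% among all tested genes. The median log2 fold change of the list was 0.15. Idh3a, of the citric acid cycle, had the smallest p (0.61, adjusted p = 0.0227), followed by Cox5a, of respiratory complex IV, which fell (-0.36, adjusted p = 0.0423), a call that was lost in TPM (-0.22, adjusted p = 0.125), with edgeR (adjusted p = 0.0548), with no filter (0.0611), with limma without the trend (0.0669) and without Ctrl replicate 1 (0.286) or replicate 2 (0.150). The log2 ratio of the BCKDH subunits to the mean of this list was -2.06 and -2.02 in Ctrl libraries against -1.69 and -1.58 in WC1, and that of Bckdk was -1.77 and -1.76 in Ctrl libraries against -1.84 and -1.99 in WC1. The subunits thus stood higher and the kinase lower against mitochondrial mRNA in both WC1 libraries.

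The mRNA of cell type markers moved between the groups as well, and it does not tell cell number from RNA per cell. All 10 adipocyte markers had higher values in both WC1 libraries and 7 passed the test, with a median log2 fold change of 1.14, and their summed level was between 10511 and 11850 CPM in Ctrl and between 19262 and 24801 CPM in WC1. Adipoq, which encodes adiponectin, had 630.1 and 784.0 CPM in the Ctrl pair against 1398 and 1944 CPM in the WC1 pair. All 10 macrophage markers had lower values in both WC1 libraries and 4 passed the test (median -0.78), with a summed level between 11563 and 12755 CPM in Ctrl and between 5335 and 7702 CPM in WC1. All 6 endothelial markers were higher and 4 passed (median 0.93, summed level between 388.3 and 426.9 CPM against 753.5 and 954.5 CPM). Of 8 fibroblast markers 3 fell (median -0.39, summed level between 7833 and 10755 CPM over the 4 libraries).

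Against the adipocyte markers the BCAA genes stood lower in WC1. The log2 ratio of the BCKDH subunits to the mean of the adipocyte markers was -3.18 and -3.42 in Ctrl and -3.74 and -4.09 in WC1, and that of Bcat2 went from -2.26 and -2.52 to -3.47 and -3.73. Within each group the library with the higher adipocyte markers (replicate 2) also had the higher values of Bckdha, Bckdhb, Ivd and Mccc1, and Dbt did so in WC1 but not in Ctrl. This order was not particular to the genes that rose. Bcat1 and Bcat2, which were not called, had it in both groups, and Bckdk had the reverse order in both. Slc25a44 had it in Ctrl only and Ppm1k in WC1 only. The part of the adipocyte, endothelial, fibroblast and macrophage markers in the rise of the 5 genes was not tested.

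Of the cells that a dissection of this depot could add, epididymis markers were near absent, with 4 of 7 at 0 in all libraries, and 0 of the 7 passed the filter. The exception was WC1 replicate 1, whose summed epididymis level was 3.36 CPM against at most 0.351 CPM elsewhere. Mesothelial markers differed within WC1, with a summed level of 60.7 and 162.7 CPM, and 0 of 6 passed the test. B cell markers were at a summed level of 4.31 and 2.59 CPM in Ctrl and 7.24 and 26.4 CPM in WC1 (1 of 4 higher). T and NK cell markers stayed between 7.31 and 12.9 CPM (0 of 7). Of 6 tested brown adipocyte markers 2 rose and 1 fell, with a summed level of 26.5 to 37.0 CPM. Of 3 tested skeletal muscle markers 2 rose (15.4 to 41.9 CPM), and of 1 tested erythroid marker 0 did (3.41 to 6.91 CPM). Too low to test were 5 of the 8 muscle markers listed, 3 of the 4 erythroid markers and 1 of the 7 brown adipocyte markers. The part of these cells in the results was not tested.

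**Figure D5:**
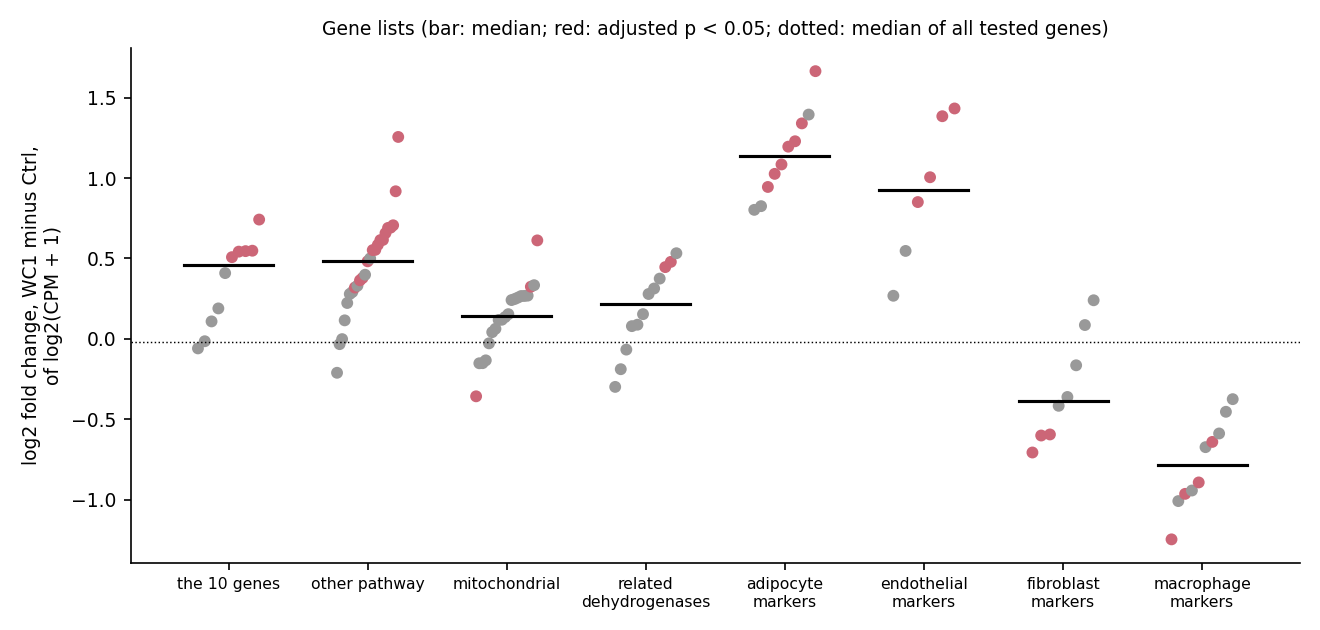
Log2 fold change (WC1 minus Ctrl, on log2(CPM + 1)) of each tested gene of 8 lists, sorted within a list, with a bar at the median, red where the adjusted p was under 0.05 and a dotted line at the median of all tested genes. The 10 genes (median 0.46) lie between the mitochondrial list (0.15) and the adipocyte markers (1.14), and the macrophage markers (-0.78) lie on the other side.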

How the data were processed

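Poly(A) RNA-seq libraries made with a directional kit from epididymal adipose tissue were analysed, 2 of Ctrl and 2 of WC1, grouped by their titles. The submitters' processing notes name fastp, HISAT2, StringTie and mm10. The sources used here do not name the read counter or the annotation. The first deposited matrix holds a signal proportional to reads: the authors scaled each library with a factor of its own, so that columns came to between 97.6% and 104.8% of plain CPM. Its values are written as CPM. All of them were whole multiples of 1 read to within 0.01 read, which gave the reads per library, and 3 reads corresponded to at most 0.0492 CPM. The second deposited matrix holds TPM, in which the authors corrected for transcript length.

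The test covered genes that reached 0.5 CPM in 2 or more libraries, which left 14106 and removed 10315, and all 10 BCAA genes passed. Values were transformed to log2(CPM + 1), so that fold changes of low genes are understated. The groups were compared in R 4.3.3 with limma 3.58.1 (two-sided, variance moderated along an abundance trend, no replicate block). P-values were adjusted by Benjamini-Hochberg over the tested genes, with 0.05 as the threshold. Errors are SE of the fold change or SD of 2 libraries, and intervals are 95% intervals from the model. Ratios within a library are differences of log2(CPM + 1) and carry no test. The scripts were checked on simulated data. edgeR 4.0.16 and DESeq2 1.42.0 were run on the recovered reads, which is possible because the values are whole reads, and the other alternatives were other pseudocounts, filters, scalings and libraries left out.

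The 10 genes and all lists were chosen with earlier results of these data known. Named genes outside the 10 were Dld, Mccc2 and the 2 genes with the smallest p in each subgroup or list. Adipoq stands for the adipocyte list. One listed pathway gene is counted but not reported here by name. The symbol Mut in the files was read as Mmut. Gene positions are those of RefSeq on GRCm38.p6. The 4 libraries are too few to rank other genes by likeness of pattern, which was not done.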

Additional observations from a re-analysis of the deposited data

How the results depend on the processing

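The number of BCAA genes called higher was 5 under 10 of the 14 alternatives and 6 without WC1 replicate 1, where Bcat1 was added. With no filter on low values, which adds genes to the test, it was 3 (Dbt and Ivd were lost at adjusted p of 0.0532 and 0.0562), and the number of other pathway genes called higher went from 15 to 9. The call of Adipoq was lost there as well (adjusted p = 0.0539). Without either Ctrl library 0 of the genes named here passed. With 1 library left out, the counts ranged from 0 to 6 for the BCAA genes and from 0 to 18 for the other pathway genes. Both zeros came without Ctrl replicate 1 and without Ctrl replicate 2, when only 6 and 12 of all tested genes were called, and the cause was not tested. The number of other pathway genes called lower ranged from 0 to 1, the 1 without WC1 replicate 1, and that of the BCAA genes stayed at 0 in all 14 alternatives. Over all genes the calls were 2531, against 1320 with no filter, 3861 with DESeq2 and 5172 without WC1 replicate 1.

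The log2 fold change of Bcat2 (-0.06) turned to 0.082 in TPM and ranged from -0.18 to 0.066 with 1 library left out, positive without WC1 replicate 1. That of Bckdk (-0.01) turned to 0.12 in TPM, 0.0040 with median-of-ratios scaling, 0.0041 with edgeR and 0.0043 with DESeq2, and ranged from -0.057 to 0.029 with 1 library left out, positive without WC1 replicate 2. Neither gene passed the threshold in any of these. Over the 34 named genes, 392 of 476 values under the alternatives kept their sign and their side of the threshold, and 46 of the 63 lost calls came without a Ctrl library.

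The libraries share replicate numbers, but nothing in the labels makes equal numbers a shared litter or day. The correlation across genes of the differences between replicates 1 and 2 of each group was 0.194, from 2 pairs, and the numbers were not taken to pair the samples. With a replicate block, 5 BCAA genes and 18 other pathway genes were called higher and 0 lower. Of the named genes, the block changed the calls of Auh (adjusted p = 0.0473), Acadsb (adjusted p = 0.0260) and the macrophage marker Adgre1 (adjusted p = 0.0421), which then passed. With 1 library left out, the lone library of its group was assumed to vary like the other group. Read depth and the number of libraries were not compared as limits.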

Other observations

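The pyruvate and 2-oxoglutarate dehydrogenases are built like BCKDH and share its E3 component. Of 12 genes of these complexes and of their kinases and phosphatases, 2 were increased in WC1 and 0 decreased, with a median log2 fold change of 0.22. Among all tested genes, 10.2% were called higher and 7.71% lower. Dlat, the E2 core of the pyruvate dehydrogenase, had 92.8 and 95.6 CPM in the Ctrl pair against 125.4 and 138.3 CPM in the WC1 pair (0.48 ± 0.08 SE, adjusted p = 0.0244), a change near that of Dbt, its counterpart in BCKDH. Pdp2, a phosphatase that switches the pyruvate complex on, had 4.85 and 4.73 CPM in the Ctrl pair against 6.85 and 6.94 CPM in the WC1 pair (0.45 ± 0.10 SE, adjusted p = 0.0445). That call was lost with the filter at a mean of 5 CPM (adjusted p = 0.0542), with no filter (adjusted p = 0.0828), without WC1 replicate 2 (adjusted p = 0.0763) and without either Ctrl library. The difference between the complexes was not tested.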
